A study of Mus musculus with 10 samples.

Results

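The miR-23/27/24 clusters are a pair of small gene clusters that each carry 1 hairpin of the miR-23, miR-27 and miR-24 families, namely cluster a (mmu-mir-23a, mmu-mir-27a, mmu-mir-24-2) and cluster b (mmu-mir-23b, mmu-mir-27b, mmu-mir-24-1). The 6 hairpins were chosen by their names and genomic clusters, out of 1136 miRNA hairpins listed in the files of the series. Mature sperm came from the vas deferens and the tail of the epididymis in C57BL/6J males (F0) that had received, from 4 weeks of age and for 10 weeks, either a control diet with 10% of kcal as fat (CD-F0, 5 samples) or a high-fat diet with 42% of kcal as fat (HFD-F0, 5 samples). No allele or other treatment is given for either group, and the labels do not say whether each sample came from 1 mouse, so the p-values below measure the spread between these samples.

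A miRNA is cut from a hairpin in a longer primary transcript, and the mature strand guides repression of mRNAs that pair with its seed, bases 2 to 8. The hairpins of each cluster are thought to be made from a shared primary transcript. miR-27 is known for restraining fat cell formation through Pparg, the master regulator of adipocytes, miR-23 for acting on glutaminase and so on glutamine use, and miR-24 for acting on cell cycle genes. All of them are also well known from endothelial, blood and muscle cells. The question put to these data was whether the clusters differ in level from each other and between the diets in sperm.

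According to RefSeq (GRCm38.p6, the assembly of the mm10 build named in the submitters' processing notes), cluster a spans 404 bases of the plus strand of chromosome 8. Mir23a lies from 84208518 to 84208592, Mir27a from 84208672 to 84208758 and Mir24-2 from 84208815 to 84208921. Mir23a and Mir27a overlap no other gene of the GENCODE annotation, whereas Mir24-2 lies in an exon of the lincRNA Gm26532. The near edge of the next protein-coding gene, Zswim4, lies 1757 bases after Mir24-2. Cluster b spans 792 bases of the plus strand of chromosome 13, with Mir23b from 63300484 to 63300557, Mir27b from 63300712 to 63300784 and Mir24-1 from 63301208 to 63301275. All 3 lie within the protein-coding gene 2010111I01Rik, Mir23b in an intron and the others in an annotated exon, and antisense to an intron of Fancc.

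The mature 3p sequences decide how well the clusters can be told apart, so those listed by RefSeq are shown first, with the seed in capitals. The mature sequence mmu-miR-23b-3p is named only.
mmu-miR-23a-3p: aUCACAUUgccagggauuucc
mmu-miR-27a-3p: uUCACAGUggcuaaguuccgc
mmu-miR-27b-3p: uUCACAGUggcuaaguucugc
mmu-miR-24-3p: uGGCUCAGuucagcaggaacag

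The sequences of miR-27a-3p and miR-27b-3p share a seed and differ at 1 of 21 positions, C19U, counted from the 5′ end with the base of miR-27a-3p first. The 2 hairpins of miR-24 give an identical mature 3p sequence of 22 bases. Of the 1679 mature names in the table, 0 outside these clusters share the miR-23a-3p or the miR-27 3p seed, while 4 share the miR-24-3p seed (mmu-miR-6413, mmu-miR-6410, mmu-miR-6369 and mmu-miR-5124b). The 5p strands, shown because those of miR-27 and miR-24 differ more between the clusters than the 3p strands do, are the following.
mmu-miR-23a-5p: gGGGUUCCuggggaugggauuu
mmu-miR-23b-5p: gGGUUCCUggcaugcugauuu
mmu-miR-27a-5p: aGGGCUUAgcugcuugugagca
mmu-miR-27b-5p: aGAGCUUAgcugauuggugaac
mmu-miR-24-2-5p: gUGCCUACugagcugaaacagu
mmu-miR-24-1-5p: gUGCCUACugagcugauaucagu

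The 5p strands of miR-27 differ at 8 positions without gaps, the first being G3A within the seed. Those of miR-24 are alike over their first 16 bases and therefore share a seed. The deposited values are reads per hairpin, with both strands together, so 5p and 3p reads were not separated here.

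Between 29558751 and 32178088 clean reads were obtained per sample, and levels are given as RPM, the reads per 1000000 clean reads. The share of clean reads that matched the genome was 64.9% to 75.2% in the CD-F0 group, lowest in replicate 1, and 73.3% to 74.7% in the HFD-F0 group. A read is a whole small RNA, so the level does not scale with the length of the gene. All 10 miRNAs listed as germ cell and sperm markers were detected in every library, and their sum was between 12556 and 15397 RPM in the CD-F0 group and between 9226 and 18154 RPM in the HFD-F0 group. Markers of other cells were also present. The 6 epithelial markers reached 3969 to 6756 RPM in the CD-F0 group and 5520.2 to 9463 RPM in the HFD-F0 group, and the 6 muscle markers, mostly mmu-mir-143, reached 21352 to 29447 RPM and 15876 to 36525 RPM. The blood and immune list, in which mmu-mir-142 was at 0 under that name and 6 of 7 were detected in every library, reached 1432 to 3140 RPM over all libraries, and the endothelial list 901 to 2066 RPM, of which mmu-mir-126a was the main part and 1 of 2 was detected in every library. The liver miRNA mmu-mir-122 was at 3.45 to 101 RPM. In such bulk samples fewer cells of a type and less RNA per cell cannot be told apart.

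All 6 hairpins were read in all 10 libraries, and all passed the filter on low counts. Together they held 4.46% ± 0.536 of the miRNA reads under the control diet and 4.83% ± 0.453 under the high-fat diet (SD, n = 5 each). By the mean level over all samples, mmu-mir-27a was the 24th, mmu-mir-27b the 25th, mmu-mir-23a the 26th and mmu-mir-23b the 30th miRNA hairpin, whereas mmu-mir-24-2 and mmu-mir-24-1 were the 66th and the 71st. miR-27 and miR-23 were thus near each other in level and miR-24 was lower. Of the reads of the 6 hairpins, the miR-24 pair held 12.7% ± 6.90 under the control diet and 13.5% ± 4.41 under the high-fat diet (SD, n = 5 each), with 6.53% in the lowest library and 23.1% in the highest.

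Before the clusters are compared, the way in which reads were shared has to be considered. A read that fits several hairpins was divided between them by the authors' program, and 1 mismatch was allowed. In all 10 libraries the values of mmu-mir-23a and mmu-mir-23b had the same fractional part, and so had those of mmu-mir-27a and mmu-mir-27b and those of mmu-mir-24-2 and mmu-mir-24-1. This part was 0.5 in 1, 3 and 5 libraries for these pairs and otherwise 0, as it would be if shared reads went in equal parts to the 2 hairpins of a pair. How many reads were shared is not listed. The difference between 2 hairpins of a pair, a lower bound on the reads assigned to a single one of them, was 0.182% to 6.03% of the pair's reads for miR-23, 0.113% to 3.99% for miR-27 and 1.83% to 6.38% for miR-24. The sum of a pair does not depend on this division.

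With this limit, cluster a was slightly above cluster b. The CD-F0 sums were 3898 ± 571 RPM for cluster a and 3653 ± 521 RPM for cluster b, and the HFD-F0 sums 4566 ± 553 and 4365 ± 545 RPM (SD, n = 5 each). The HFD-F0 to CD-F0 ratios of these sums, 1.17 and 1.19, depended on the denominator. They were 1.07 and 1.09 per miRNA read, and 1.11 and 1.13 per genome-matched read (not tested). Within the same library, mmu-mir-23a had 1.08 times the reads of mmu-mir-23b (mean log2 ratio 0.11 ± 0.05, SD, n = 10), and it was higher in 9 of 10 libraries (p = 0.00391, exact sign-flip permutation test, two-sided, adjusted p = 0.00586 over the 3 ratios). For mmu-mir-27a to mmu-mir-27b the ratio was 1.04 (mean log2 ratio 0.05 ± 0.04, SD, n = 10), again higher in 9 of 10 libraries (p = 0.00586 in the same exact permutation test, adjusted p = 0.00586). For mmu-mir-24-2 to mmu-mir-24-1 it was 1.07 and above 1 in all 10 libraries (p = 0.00195, the smallest this exact permutation test can give, adjusted p = 0.00586). Since miR-24-3p is the same from both of its hairpins, this last ratio cannot be read as a difference in the 3p strand, and the ratios of the other pairs were no larger than 1.13 in any library. They are therefore a description of assigned reads, and the true ratio of the clusters cannot be told from them.

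**Figure D1:**
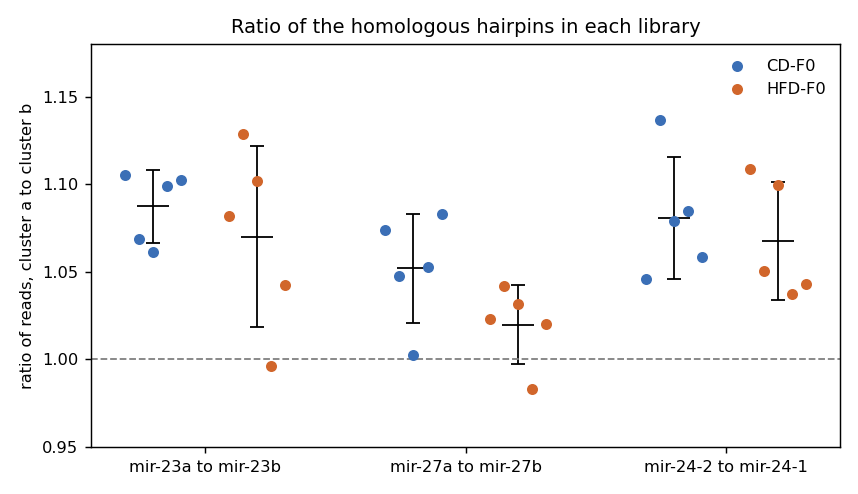
Ratio of the reads of the cluster a hairpin to those of its cluster b homologue (vertical axis, no unit) for the 3 pairs, with a point per library, CD-F0 in blue and HFD-F0 in orange, and the mean with SD in black. The ratios lie between 0.983 and 1.14, and the dashed line marks equal reads.

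The balance of the homologues did not differ past the threshold between the diets. For mmu-mir-27a to mmu-mir-27b the mean log2 ratio was 0.07 ± 0.04 with the control diet against 0.03 ± 0.03 with the high-fat diet (SD, n = 5 each), which is a difference of -0.04 (p = 0.103, exact permutation test, two-sided, adjusted p = 0.310 over the 3 ratios). Without CD-F0 replicate 3 this difference was -0.06 with an exact permutation p of 0.0159. The ratio of the miR-23 hairpins differed by -0.02 (exact permutation p = 0.532, adjusted p = 0.563), and that of the miR-24 hairpins also by -0.02 (exact permutation p = 0.563, adjusted p = 0.563). The signs of the last 2 turned when 1 library was left out, HFD-F0 replicate 4 for miR-23 (0.0012) and CD-F0 replicate 2 for miR-24 (0.00070).

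The level of miR-23 was higher in most HFD-F0 samples. For mmu-mir-23a, the CD-F0 replicates 1 to 5 were at 1779, 1349, 1743, 1227 and 1565 RPM. The HFD-F0 replicates 1 to 5 were at 2134, 2046, 2034, 2037 and 1575 RPM. Thus 4 of the 5 HFD-F0 samples lay above every CD-F0 sample in RPM. HFD-F0 replicate 5 lay among the CD-F0 samples, so the groups overlapped on this scale. mmu-mir-23b was at 1609, 1262, 1643, 1116 and 1419 RPM in the CD-F0 replicates. It was at 1973, 1813, 1846, 2044 and 1511 RPM in the HFD-F0 replicates, with the same sample among the CD-F0 samples. The means of mmu-mir-23a were 1532 ± 241 RPM for CD-F0 and 1965 ± 222 RPM for HFD-F0 (SD, n = 5 each), and those of mmu-mir-23b 1410 ± 225 and 1837 ± 205 RPM.

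In the edgeR fit over all features, the log2 fold change of mmu-mir-23a was 0.26 (standard error 0.15, 95% interval -0.07 to 0.59, edgeR adjusted p = 0.573, by the quasi-likelihood test and the Benjamini-Hochberg method across 814 features). That of mmu-mir-23b was 0.28 (standard error 0.15, 95% interval -0.05 to 0.61, edgeR adjusted p = 0.526). Neither passed. The size of this difference depended on the scaling. With the clean reads as library size, which moved the median log2 fold change of all features from -0.01 to 0.09, the log2 fold changes were 0.36 (edgeR adjusted p = 0.431) and 0.38 (edgeR adjusted p = 0.371). In a fit of the miRNA features alone they were 0.32 and 0.35, with edgeR adjusted p = 0.375 for both. Without CD-F0 replicate 1 they were 0.36 and 0.37, with edgeR adjusted p = 0.366 and adjusted p = 0.355. In these 3 fits both hairpins were under 0.05 before adjustment, and neither was after it. Other libraries lowered the change when left out. Without CD-F0 replicate 2 the log2 fold changes were 0.17 (edgeR adjusted p = 0.835) and 0.20 (edgeR adjusted p = 0.812), and without CD-F0 replicate 4 they were 0.19 and 0.22.

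The sum of the muscle markers, mostly mmu-mir-143, moved with miR-23, and so did that of the endothelial markers. In the CD-F0 replicates 1 to 5 the muscle sum was 29447, 23430, 29352, 21352 and 26974 RPM, in the same order as the miR-23 pair with 3388, 2611, 3386, 2343 and 2984 RPM. In the HFD-F0 replicates it was 36525, 30714, 27744, 35153 and 15876 RPM, beside 4107, 3860, 3880, 4081 and 3086 RPM of the miR-23 pair, so that replicates 1 and 4 were highest and replicate 5 lowest in both. The muscle sum averaged 26111 ± 3613 RPM for CD-F0 and 29202 ± 8232 RPM for HFD-F0, and the epithelial sum 5519 ± 1194 and 6890 ± 1574 RPM (SD, n = 5 each). The muscle sum says little of its smaller members, since mmu-mir-133a-1 ran from 17.4 to 124 RPM in the CD-F0 group. mmu-mir-143 is also on the adipogenesis list below. The endothelial sum was 1762, 1613, 1991, 1257 and 1666 RPM in the CD-F0 replicates and 2066, 1599, 1774, 1852 and 901 RPM in the HFD-F0 replicates. Its order in the HFD-F0 group was that of the miR-23 pair, with replicate 5 the lowest of all 10 libraries. In the CD-F0 group only replicates 1 and 3 changed places. Its mean did not rise, with 1658 ± 267 RPM for CD-F0 and 1638 ± 445 RPM for HFD-F0 (SD, n = 5 each). All these levels are per clean read, and the miRNA share of annotated reads also differed between libraries. Among the CD-F0 replicates this share had the order of the endothelial sum, from 19.58% in replicate 3 to 16.54% in replicate 4. Among the HFD-F0 replicates it was highest in replicate 1, at 24.95%, and lowest in replicate 5, at 15.62%. Replicate 2, at 20.21%, lay above replicates 3 and 4, unlike in the miR-23 pair. The parts of this share and of these cells in the level of miR-23 were not tested.

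**Figure D2:**
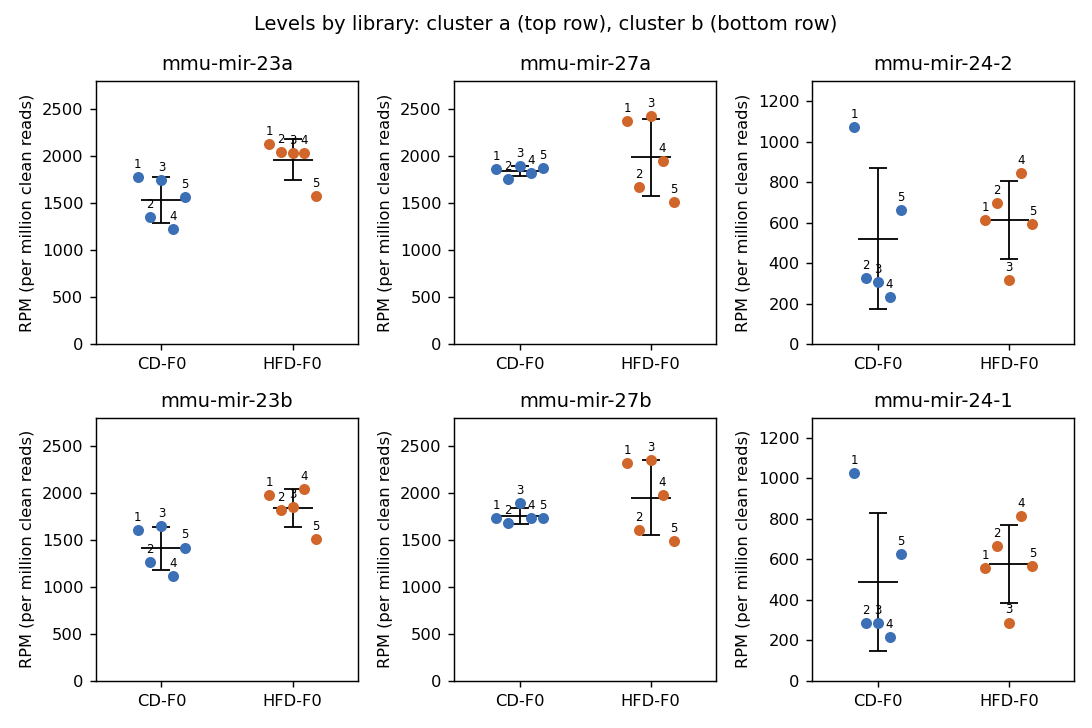
Level of each hairpin in RPM (vertical axis) in the CD-F0 (blue) and HFD-F0 (orange) libraries, with replicate numbers beside the points and the mean with SD in black. Cluster a is in the top row and cluster b in the bottom row, and the axis of the miR-24 panels is shorter. For miR-23, 4 HFD-F0 libraries lie above all CD-F0 libraries, whereas for miR-24 CD-F0 replicate 1 is the highest library.

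miR-27, the family best known from fat cells, was steady in RPM under the control diet and spread out under the high-fat diet. In the CD-F0 replicates mmu-mir-27a was at 1865, 1762, 1899, 1823 and 1874 RPM. In the HFD-F0 replicates it was at 2373, 1674, 2429, 1944 and 1516 RPM. In RPM, 3 of the HFD-F0 samples lay above every CD-F0 sample and 2 below every one. On that scale the high-fat samples stood on both sides of the control samples. The same 3 and 2 samples did so for mmu-mir-27b, with 1737, 1682, 1894, 1732 and 1730.2 RPM in the CD-F0 replicates. Its HFD-F0 replicates were at 2320.3, 1607, 2355, 1978 and 1486 RPM. The coefficient of variation was 2.91% in the CD-F0 group and 20.5% in the HFD-F0 group for mmu-mir-27a, and 4.61% and 20.4% for mmu-mir-27b. This difference in spread was not tested.

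The means of mmu-mir-27a were 1845 ± 53.6 RPM for CD-F0 and 1987 ± 408 RPM for HFD-F0 (SD, n = 5 each). Its log2 fold change was -0.0028 (standard error 0.13, 95% interval -0.30 to 0.29, edgeR adjusted p = 0.991). With the clean reads as library size it was 0.11, so the sign depended on the scaling. For mmu-mir-27b the means were 1755 ± 80.9 and 1949 ± 398 RPM (SD, n = 5 each), and the log2 fold change was 0.04 (standard error 0.13, 95% interval -0.25 to 0.34, edgeR adjusted p = 0.950). As fold changes, the intervals run from 0.814 to 1.22 for mmu-mir-27a and from 0.840 to 1.26 for mmu-mir-27b, which bounds a change between the diets on the scale of this fit.

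miR-24 varied most between samples and showed no direction with the diet. mmu-mir-24-2 was at 1073, 327, 309.6, 234 and 662 RPM in the CD-F0 replicates. It was at 616, 699, 317, 843 and 593 RPM in the HFD-F0 replicates. CD-F0 replicate 1 was the highest library of all, CD-F0 replicate 5 lay among the HFD-F0 samples, and the other 3 CD-F0 samples were near or below HFD-F0 replicate 3, so the groups overlapped widely. mmu-mir-24-1 followed with 1026, 288, 287, 216 and 626 RPM in the CD-F0 replicates. Its HFD-F0 replicates were at 555, 666, 288, 813 and 569 RPM, in nearly the same order. In the lowest case, mmu-mir-24-1 in CD-F0 replicate 4, the 6789 reads gave a 95% Wilson interval of 211 to 221 RPM, which is narrow beside the differences between libraries.

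The log2 fold change of mmu-mir-24-2 was 0.12 (standard error 0.43, 95% interval -0.81 to 1.05, edgeR adjusted p = 0.960), from means of 521 ± 350 to 614 ± 193 RPM (SD, n = 5 each). For mmu-mir-24-1 it was 0.13 (standard error 0.44, 95% interval -0.84 to 1.09, edgeR adjusted p = 0.955), from means of 488 ± 340.1 to 578 ± 192 RPM (SD, n = 5 each). As fold changes, the intervals run from 0.570 to 2.07 and from 0.559 to 2.14, so changes of such sizes were not detectable with these samples. The value rested on single libraries. Without CD-F0 replicate 1 the log2 fold changes were 0.64 and 0.67, with edgeR adjusted p = 0.523 for both, and without CD-F0 replicate 2, 3 or 4 or HFD-F0 replicate 4 they were negative, down to -0.067.

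**Figure D3:**
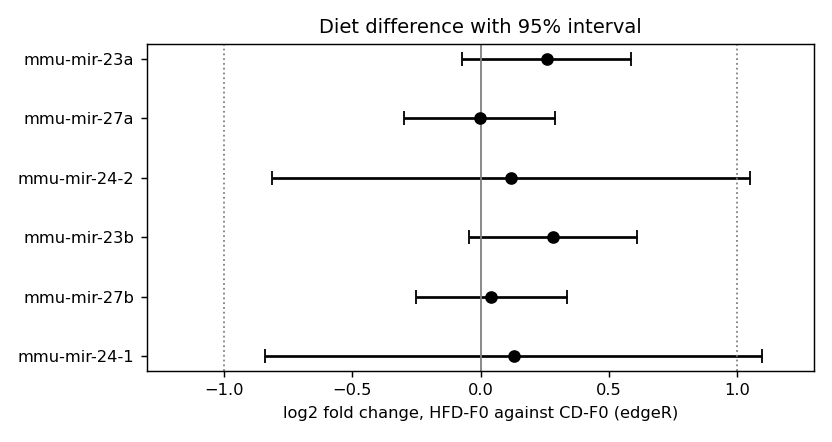
Log2 fold change of each hairpin between HFD-F0 and CD-F0 (horizontal axis, edgeR), with 95% intervals and dotted lines at the fold change threshold of 1 in either direction. All intervals include 0, and those of the miR-24 hairpins, from -0.81 to 1.05 and from -0.84 to 1.09, are the widest.

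Of the 6 hairpins, 0 passed the study's thresholds, an unadjusted p of at most 0.05 with an absolute log2 fold change of at least 1, in edgeR, against 15 of 529 miRNA features, or 2.84%, and 3.69% of all features. By the unadjusted p alone 0 of 6 passed in edgeR and 0 in DESeq2, where 9.64% of the miRNA features passed in edgeR. With such shares in the background, 0 of 6 is not a result about these hairpins. When each pair was summed to 1 feature, which removes the division of shared reads, the log2 fold changes were 0.27 for miR-23, 0.024 for miR-27 and 0.13 for miR-24, with edgeR adjusted p = 0.548, adjusted p = 0.985 and adjusted p = 0.960.

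The families did not keep a fixed ratio, although they come from the same clusters. The ratio of the miR-27 pair to the miR-23 pair was 1.25 ± 0.180 for CD-F0 and 1.03 ± 0.154 for HFD-F0 (SD, n = 5 each, not tested), with the lowest value, 0.850, in HFD-F0 replicate 2 and the highest, 1.52, in CD-F0 replicate 4. The ratio of the miR-24 pair to the miR-23 pair ran from 0.156 in HFD-F0 replicate 3 to 0.619 in CD-F0 replicate 1, a span of 3.97-fold. With log2 RPM centred on its mean over the 10 libraries, the profiles of miR-23 and miR-27 differed by 0.18 on average, whereas that of miR-24 differed by 0.54 from miR-23 and by 0.70 from miR-27. For comparison, the median of this difference between the miR-23 pair and the 284 other miRNA hairpins with a mean of at least 10 RPM was 0.31. For the miR-24 pair, which varied more itself, the median was 0.71. Of the 284 hairpins, 48 were nearer to the miR-24 pair than the miR-23 pair was, and 138 were nearer than the miR-27 pair was.

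Within the diet groups, the SD of log2 RPM was 0.77 for mmu-mir-24-1 and 0.74 for mmu-mir-24-2. Among the 71 miRNA hairpins with at least the mean level of mmu-mir-24-1 these were the largest values, followed by mmu-mir-34a with 0.64, and the median was 0.27. As both miR-24 hairpins share their 3p reads, they count as 1 observation. Both miR-23 hairpins were at 0.21, mmu-mir-27a at 0.21 and mmu-mir-27b at 0.22, all below that median. For miR-27 this value joins unlike groups, since mmu-mir-27a had an SD of 0.042 in the CD-F0 group and 0.30 in the HFD-F0 group, and mmu-mir-27b 0.065 and 0.30.

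**Figure D4:**
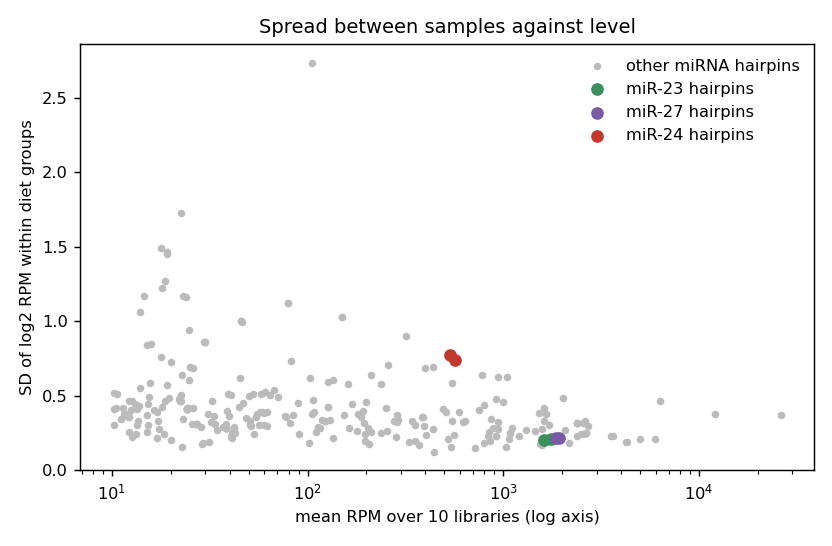
SD of log2 RPM within the diet groups (vertical axis) against the mean level over the 10 libraries in RPM (horizontal log axis), with a point per miRNA hairpin of at least 10 RPM that was read in every library. The miR-24 hairpins, at 0.74 and 0.77, lie above the other hairpins of their level or higher, and the miR-23 and miR-27 hairpins lie between 0.21 and 0.22.

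The miRNAs with the profile most like cluster a, by the mean absolute difference of centred log2 RPM over 10 libraries, were mmu-mir-28a (0.10), mmu-mir-99a (0.11) and mmu-mir-100 (0.11), and the same 3 were nearest to cluster b, at 0.12, 0.10 and 0.10. Taken by family, a choice made after the values were seen, the miR-27 pair was nearest to mmu-mir-28a (0.10), mmu-mir-16-1 (0.11) and mmu-mir-16-2 (0.11). The miR-23 pair was nearest to mmu-mir-99a (0.14), mmu-mir-100 (0.14) and mmu-mir-103-2 (0.14). The miR-24 pair had no neighbour as near. Its 3 nearest were mmu-mir-10a (0.30), mmu-mir-10b (0.30) and mmu-mir-125a (0.33), where the median over all candidates was 0.71. Like miR-24, mmu-mir-10a was higher in CD-F0 replicates 1 and 5, at 1184 and 831 RPM, than in replicates 2, 3 and 4, at 590.2, 516 and 511 RPM. In the HFD-F0 group it was lowest in replicate 3, at 891 RPM, and highest in replicate 4, at 1771 RPM, as miR-24 was. The log2 fold changes between the diets were 0.68 for mmu-mir-10a and 0.72 for mmu-mir-10b (edgeR adjusted p = 0.430 for both), beside 0.12 and 0.13 for the miR-24 hairpins. All these profiles come from the same 10 libraries and share their depth.

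**Figure D5:**
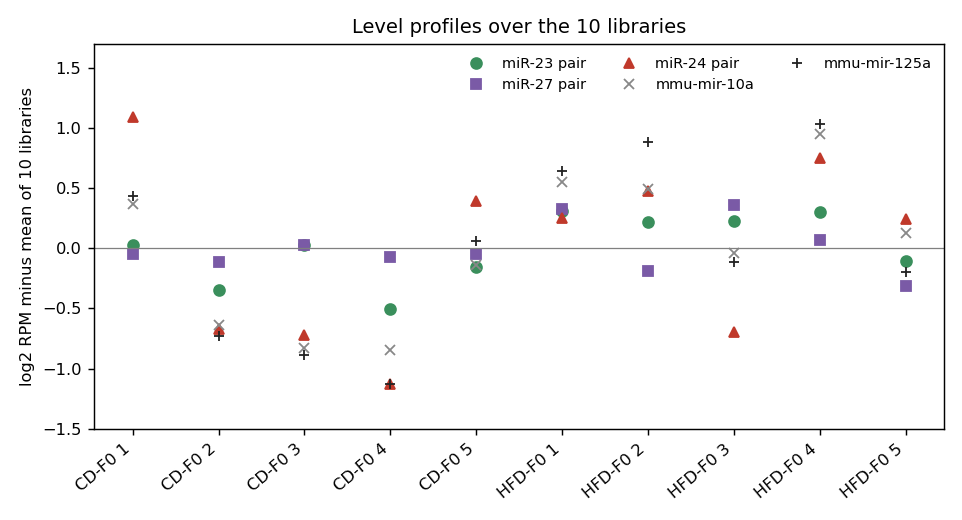
Log2 RPM minus its mean over the 10 libraries (vertical axis) for the summed miR-23, miR-27 and miR-24 pairs and for mmu-mir-10a and mmu-mir-125a, by library (horizontal axis). The miR-24 pair has mean differences of 0.54 from miR-23 and 0.70 from miR-27. mmu-mir-10a, at 0.30, is shown because it was the nearest of 284 hairpins in these same values. Its smaller difference therefore follows from how it was chosen and is not evidence of a relation.

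Marker sums moved with miR-24 in part. In CD-F0 replicates 1 and 5, with 2098 and 1288 RPM of the miR-24 pair, the epithelial markers summed to 6643 and 6756 RPM and the germ cell markers to 12556 and 13408 RPM. In CD-F0 replicates 2, 3 and 4, with 615, 597 and 449.5 RPM of miR-24, the epithelial markers were lower, at 5412, 3969 and 4817 RPM, and the germ cell markers higher, at 15397, 14918 and 14801 RPM. In the HFD-F0 group the sample with the least miR-24, replicate 3 with 606 RPM, had the lowest epithelial sum, 5520.2 RPM. The sample with the most, replicate 4 with 1656 RPM, had the lowest germ cell sum, 9226 RPM. HFD-F0 replicate 1 did not follow, since it had the highest epithelial sum, 9463 RPM, and the highest germ cell sum, 18154 RPM, with 1171 RPM of miR-24. Other lists did not follow miR-24. The blood and immune sum was 2073, 1746, 2537, 1769 and 1544 RPM in the CD-F0 replicates 1 to 5, highest in replicate 3 and lowest in replicate 5. The muscle sum was nearly as high in CD-F0 replicate 3, at 29352 RPM, as in replicate 1, at 29447 RPM. The part of any of these cells in the level of miR-24 was not tested.

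Other miRNAs known to act in fat cell formation gave the setting for these values. Of 34 listed hairpins, 33 passed the filter on low counts, and 3 of them passed the study's thresholds in edgeR, all higher in the HFD-F0 group. The share was 9.09%, beside 2.84% of all miRNA features. Both counts rested on single libraries, since without HFD-F0 replicate 4 the list had 1 call, and the 15 calls among all miRNA features became 9 to 30 with a sample left out. By the unadjusted p alone, 6 were higher and 1 was lower in edgeR, where 4.91% of the miRNA features were higher and 4.73% lower. After adjustment 0 of 33 passed 0.05, as did 0.0% of the miRNA features. The median log2 fold change of the list was 0.09, beside -0.055 for the miRNA features and -0.01 for all features. Several of these hairpins share mature sequences, so they are not independent.

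Among the miRNAs that restrain adipocyte formation, mmu-mir-221 was at 254 RPM on average in the CD-F0 group, from 193 to 293, and at 452 RPM in the HFD-F0 group, from 404 to 495. This miRNA was named for its low unadjusted p in these same values, so the separation of its groups adds no evidence. Its log2 fold change was 0.73 (standard error 0.16, edgeR adjusted p = 0.116). Its neighbour mmu-mir-222, made from the same locus, had a log2 fold change of 0.09 (edgeR adjusted p = 0.932) and was named after its value was seen. mmu-mir-363 averaged 1.88 RPM for CD-F0 and 1.05 RPM for HFD-F0, with a log2 fold change of -0.96 (edgeR adjusted p = 0.250). mmu-mir-145a, named because it passed both thresholds, ran from 359 to 811 RPM for CD-F0 (median 509.9 RPM) and from 787 to 2636 RPM for HFD-F0 (median 868 RPM). The groups overlapped, the log2 fold change was 1.09 (edgeR adjusted p = 0.293), and this miRNA is also on the list of muscle markers.

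Among those that promote it, mmu-mir-30c-1 and mmu-mir-30c-2 had log2 fold changes of 0.70 and 0.68, with edgeR adjusted p = 0.225 for both. mmu-mir-30c-1 ran from 150.0 to 329 RPM in the CD-F0 group and from 301 to 387 RPM in the HFD-F0 group, so the groups overlapped at 1 end. mmu-mir-365-1, a miRNA of brown fat, had a log2 fold change of 1.32 at 0.905 to 3.05 RPM in the CD-F0 group and 3.28 to 7.68 RPM in the HFD-F0 group (edgeR adjusted p = 0.225), and mmu-mir-365-2, which shares its mature sequence, one of 1.20 (edgeR adjusted p = 0.250). By contrast, mmu-mir-193b of the same list, named after its value was seen, had a log2 fold change of 0.04 (edgeR adjusted p = 0.991) at a mean of 9.68 RPM. The 4 most abundant hairpins of the list did not pass the thresholds. mmu-mir-143 had a mean of 26257 RPM and a log2 fold change of 0.02 (edgeR adjusted p = 0.991), mmu-mir-21a 12075 RPM and -0.13 (edgeR adjusted p = 0.907), mmu-mir-196a-2 1444 RPM and -0.22 (edgeR adjusted p = 0.606) and mmu-mir-196a-1 1306 RPM and -0.22 (edgeR adjusted p = 0.609).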

How the data were processed

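Small RNA of 18 to 30 nt from mature sperm was sequenced with adapters carrying molecular identifiers. The authors aligned clean reads with SPORTS and Bowtie (1 mismatch, mm10) and deposited estimated counts without normalization, 1 value for every RNA class and each of its members. Versions, database releases and whether reads were collapsed by identifier are not given in the sources used here.

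Genome-matched and unmatched reads were added, which gave 1470 features, and counts were rounded. edgeR 4.0.16 (R 4.3.3) was run with filterByExpr (814 features), TMM and a quasi-likelihood test on 5 against 5 samples, with diet as the only term. The fit was tested on simulated data. Ratios of homologues and their diet differences were tested by exact permutation (Python 3.11.15, numpy 2.4.6, scipy 1.17.1), and wider sums were not tested. Wilson intervals cover counting error only. Every pair of libraries differed by more than sampling noise (chi-square per degree of freedom 579 or more). RefSeq sequences were matched by symbol for all 6 hairpins.

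The fit was repeated with DESeq2 1.42.0, with library sizes set to clean reads, unfiltered, with a minimum of 10 counts in all samples, miRNA features only, genome-matched reads only, each sample left out, other denominators, rank statistics, a replicate block and, chosen after seeing the data, summed pairs and levels without CD-F0 replicates 1 and 5. The members, the lists and the rules for named miRNAs (every member; listed adipogenesis miRNAs at most 0.05 in unadjusted p, at most 4 a direction, and the 4 most abundant; the 3 nearest profiles) were chosen with earlier results of these data known.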

Additional observations from a re-analysis of the deposited data

Results flagged for a closer look

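Within the groups of 5, the gap of an extreme sample to its nearest neighbour, relative to the range of the group, was compared with Dixon's 95% value of 0.71 for 26 groups of values. Chance flags about 1 in 20 such groups, and 2 were flagged. mmu-mir-23a in HFD-F0 replicate 5, at 1575 RPM, stood apart below the other HFD-F0 samples, of which the nearest was at 2034 RPM. This value is per clean read, and the same library had the lowest miRNA share of annotated reads, 15.6%. The part of that share in the flag was not tested. mmu-mir-27b in CD-F0 replicate 3, at 1894 RPM, stood apart above the other CD-F0 samples, of which the nearest was at 1737 RPM. Without HFD-F0 replicate 5 the log2 fold change of mmu-mir-23a between the diets was 0.31 (edgeR adjusted p = 0.477).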

How the results depend on the processing

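Over 18 alternatives to the fit, 0 of 108 values of the 6 hairpins passed the thresholds and 6 were at most 0.05 in unadjusted p, the smallest adjusted p being 0.355. Signs turned where the change was near 0. The log2 fold change of mmu-mir-27a was 0.11 with clean reads as library size, 0.0023 without a filter, 0.055 with miRNA features only and 0.024 with summed pairs. With each sample left out, that of mmu-mir-23a ran from 0.17 to 0.36 and that of mmu-mir-23b from 0.20 to 0.37. The change of mmu-mir-27a ran from -0.087 to 0.064 (positive without CD-F0 replicate 1 or 4 or HFD-F0 replicate 2 or 5), that of mmu-mir-27b from -0.036 to 0.11 (negative without CD-F0 replicate 2 or HFD-F0 replicate 1 or 3), that of mmu-mir-24-2 from -0.066 to 0.64 and that of mmu-mir-24-1 from -0.067 to 0.67. The diet difference of the log2 ratio ran from -0.044 to 0.0012 for miR-23, from -0.062 to -0.031 for miR-27 (past 0.05 without CD-F0 replicate 3) and from -0.031 to 0.00070 for miR-24. The count of miRNA features past the thresholds was 70 without a filter and 9 to 30 with a sample left out (CD-F0 replicates 1 to 5 left out in turn gave 24, 23, 24, 9 and 30, and HFD-F0 replicate 1 gave 23). The adipogenesis list had 1 to 4, with 1 when HFD-F0 replicate 4 was left out. The cause was not tested. The labels number the replicates but do not say that a number marks a shared origin, and the deviations of same-numbered samples correlated between -0.19 and 0.34, so the numbers were not taken to pair the samples. With the replicate block mmu-mir-23a had a log2 fold change of 0.27 (edgeR adjusted p = 0.736), and the block changed no call of the 6 hairpins. For the lowest member value, the interval for counting error was narrow beside the differences between libraries. That interval takes reads as independent, and what limits the precision was not otherwise tested.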

Other observations

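The opposite strand of both miR-24 hairpins carries annotated miRNA genes, Mir3074-1 at Mir24-1 and Mir3074-2 at Mir24-2. mmu-mir-3074-1 had 10 to 52 reads per library, with a median of 29.5, and mmu-mir-3074-2 had 2 to 19.5 reads with a median of 11.2, whereas the lowest miR-24 hairpin value was 6789 reads.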
